A study of Mus musculus with 11 samples.

Results

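Interferon-gamma (IFN-gamma) given alone was compared with no treatment in cultured microglia, the resident macrophages of the brain. The comparison took every library of the IFN-g group (3) and of the Control group (3), which is 6 of the 11 RNA sequencing libraries and 2 of the 4 groups of the series; the other groups received the TLR2 agonist Pam3CSK4, either alone (2 libraries) or before IFN-gamma (3 libraries). All cells came from C57BL/6 animals, 6 to 8 weeks of age, with cerebrum as the source tissue, and were kept for 10 to 14 days in medium with 5 ng/ml TGF-beta1 and 10 ng/ml M-CSF, so these growth factors were common to both groups. The IFN-g libraries come from cells given 20 ng/ml IFN-gamma for 24 h and the Control libraries from cells given nothing. The labels do not say when the Control cells were collected, whether animals were pooled, or which sex they were. Nothing in the labels says that replicates are separate animals or cultures, so the p-values below measure the spread between these libraries, which may be technical.

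IFN-gamma is made by T cells and natural killer cells and binds the receptor chains IFNGR1 and IFNGR2. The signal passes through the kinases JAK1 and JAK2 on that receptor to gamma-activated sites in promoters, and the induced factor IRF1 then acts on interferon-stimulated response elements. In macrophages and microglia the cytokine is known for raising antigen presentation, chemokines and cell-autonomous defence. TGF-beta and M-CSF, by contrast, are known to maintain the resting programme of microglia in the brain and in culture.

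The 6 libraries held 15033702 to 18687401 counted reads each. The 20 markers of microglia and macrophages summed to between 12357 FPKM (fragments per kilobase of transcript, scaled to the depth of the library, the level used throughout) in Control 3 and 20226 FPKM in IFN-g 3, and none of them was at 0 in any of the 6. Markers of mural cells and fibroblasts set 2 libraries apart. Their 20 genes summed to 76.1, 91.6 and 2622 FPKM in Control 1 to 3 and to 226, 74.1 and 68.1 FPKM in IFN-g 1 to 3. The smooth muscle actin gene Acta2 read 0.56, 0.248 and 865 FPKM in Control and 44.1, 0.21 and 0.521 FPKM in IFN-g. Dcn and Cnn1 were at 0 in each library other than Control 3 and IFN-g 1. Myh11, Des, Rgs5, Kcnj8, Abcc9, Lum and Pdgfra of the same list read at most 0.41 FPKM in all 6. In Control 1, Cspg4 (30.1 FPKM) and Fn1 (39.8 FPKM) made up most of the sum. The 12 endothelial markers summed to 40.5 FPKM in Control 3 and to 18.6 to 30.4 FPKM in the other 5. Cdh5 and Esam read 13.7 and 13.6 FPKM in Control 3, but Cldn5 was at 0 in all 6. The 12 astrocyte markers summed to 34.3 FPKM in Control 3 and to 1.74 to 5.42 FPKM in the other 5, but the gap junction gene Gja1 made up 30.8 FPKM of that sum, and Gfap and Aqp4 were near 0 in all 6. The 14 neuron markers summed to 8.50 FPKM in Control 3 and 11.4 FPKM in IFN-g 1 against 0.509 to 0.561 FPKM in the other 4, of which the tubulin gene Tubb3 made up 6.88 and 10.7 FPKM, and Rbfox3, Snap25 and Syt1 were near 0 in all 6. The microglial sum was lowest in Control 3. Each call below was therefore repeated in a fit without Control 3 and IFN-g 1, called the 4-library comparison here. That fit kept the Pam3CSK4 libraries, which enter its estimate of the spread. The 5 testable markers of border-associated macrophages, the cells that line brain vessels and meninges, all fell with IFN-gamma. Among them F13a1 lost its call without Control 1 (log2 difference -1.73), IFN-g 2 (-2.02) or IFN-g 3 (-2.03). The rest of that list, Lyve1 and Cd163 among it, was too low to test. In bulk RNA, fewer cells of a type and less RNA per cell cannot be told apart.

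Of 10938 genes tested, 2189 were higher with IFN-gamma (20.0 percent) and 2361 were lower (21.6 percent) at an adjusted p under 0.05 in edgeR's quasi-likelihood test. At least 2-fold differences were about as frequent in both directions, with 731 genes higher (6.68 percent) and 698 lower (6.38 percent). The extremes were not alike, since 166 genes rose at least 8-fold and 50 fell at least 8-fold. The median log2 difference over all tested genes was -0.07. In the 4-library comparison 2531 genes were higher (23.1 percent) and 2653 lower (24.3 percent). Of the 2189 and 2361 genes, 2018 and 2095 were called in the same direction there, and none was called in the opposite direction. Differences below are log2(IFN-g/Control) ± SE from the fit of all 11 libraries. For each single gene said to have risen or fallen, the IFN-g libraries did not overlap the Control libraries unless the overlap is stated. Counts of list members that rose or fell rest on the adjusted p alone, and some of those members overlapped. On the list of prostaglandin and leukotriene synthesis, for example, 4 genes were called higher and 1 lay above Control in all IFN-g libraries. Separation of the groups was itself common, with 18.9 percent of tested genes above and 32.1 percent below Control in all 3 IFN-g libraries.

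**Figure D1:**
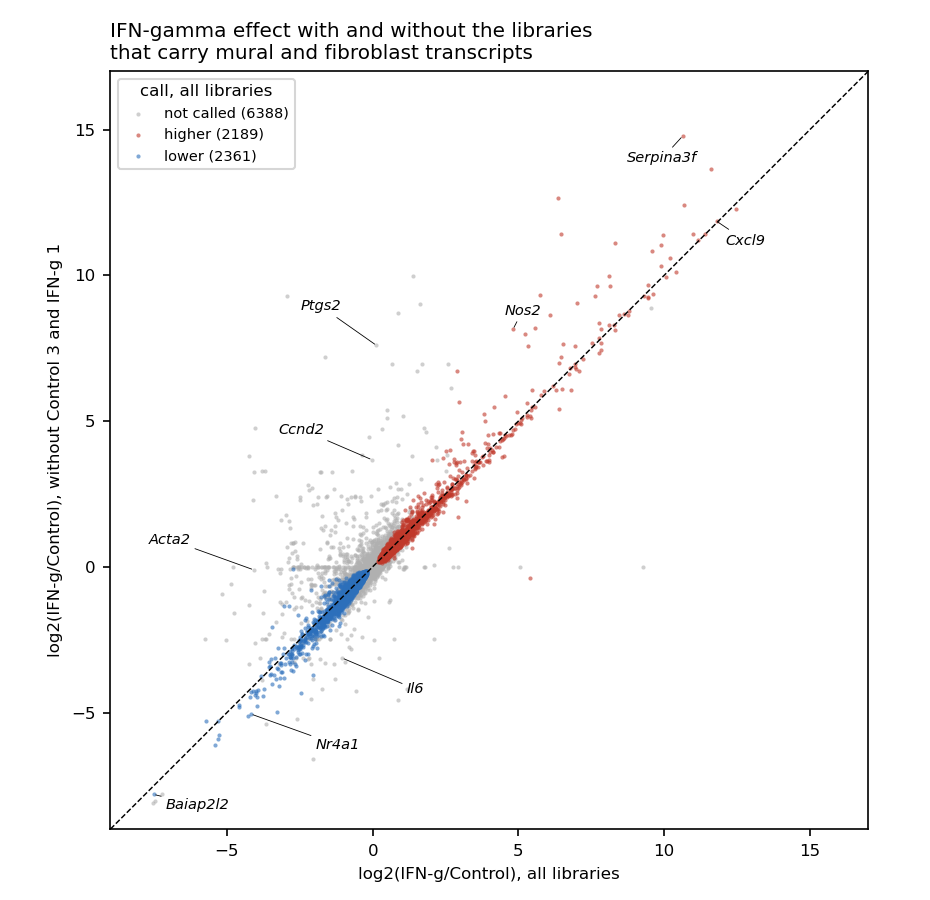
Each point is 1 of the 10938 tested genes, with the log2 difference between IFN-g and Control in the fit of all libraries on the x axis and in the fit without Control 3 and IFN-g 1 on the y axis; colour gives the call in the fit of all libraries and the dashed line marks equal values. Named genes off the line are those whose level in Control 3 or IFN-g 1 stood apart, such as Ptgs2, at 0.13 with all libraries and 7.60 without the pair.

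The largest rises included genes with at most a few reads in untreated cells. Serpina3f, an intracellular serine protease inhibitor, read 0, 0 and 0.105 FPKM in Control and 56.3, 59.2 and 60.7 FPKM in IFN-g. Its log2 difference was 10.63 ± 0.57 (adjusted p = 1.31e-06). The few Control reads came from Control 3, and the fitted difference was 14.78 in the 4-library comparison, so the counts bound its size only loosely. Dnase1l3, a secreted DNA-cutting enzyme, read 0, 0.0241 and 0.0745 FPKM in Control and 29.5, 33.3 and 36.3 FPKM in IFN-g (9.96 ± 0.48, or 11.28 without Control 3, adjusted p = 6.07e-07). Clic5, a chloride channel family member, read 0, 0.0323 and 0.019 and then 9.42, 7.26 and 6.19 FPKM (8.78 ± 0.38, or 9.51 without Control 2, adjusted p = 3.77e-07). For Il12rb1, a subunit of the interleukin-12 and interleukin-23 receptors, Control held 1 read over its 3 libraries, and the ratio of depth-scaled counts was 3926 (95 percent interval 704 to 155100, counting error only). Pdyn, the precursor of dynorphin peptides, had 2 Control reads and a ratio of 2218 (614 to 18324). Gbp10, a guanylate-binding protein, had 3 Control reads and a ratio of 731 (250 to 3545). Sectm1a had none in Control, which with a floor of 3 counts over the group makes it at least 255-fold higher.

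Promoters of 4 of the largest rises are shown because each holds a gamma-activated site match, a sequence known from promoters that respond to IFN-gamma. They are the 250 bases before the RefSeq start, on the gene's strand (GRCm38.p6), and the capitals mark matches to TTCNNNGAA or, in Tgtp1, also to the core of the interferon-stimulated response element, which is GAAA, any 2 bases and GAAA; both strands were searched. Pdyn lies at chr2:129698659-129698908 on the minus strand, Serpina3g at chr12:104235897-104236146 and Serpina3f at chr12:104214294-104214543 on the plus strand, and Tgtp1 at chr11:48992247-48992496 on the minus strand.
Pdyn: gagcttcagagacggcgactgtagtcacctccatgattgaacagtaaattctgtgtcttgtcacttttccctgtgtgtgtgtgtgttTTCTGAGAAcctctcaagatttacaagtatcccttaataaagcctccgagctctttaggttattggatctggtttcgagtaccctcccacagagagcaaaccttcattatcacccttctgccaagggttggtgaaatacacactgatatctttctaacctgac
Serpina3g: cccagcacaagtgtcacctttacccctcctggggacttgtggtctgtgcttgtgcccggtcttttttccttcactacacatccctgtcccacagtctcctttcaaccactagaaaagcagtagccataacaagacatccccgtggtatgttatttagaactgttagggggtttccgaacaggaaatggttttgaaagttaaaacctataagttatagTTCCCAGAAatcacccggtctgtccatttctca
Serpina3f: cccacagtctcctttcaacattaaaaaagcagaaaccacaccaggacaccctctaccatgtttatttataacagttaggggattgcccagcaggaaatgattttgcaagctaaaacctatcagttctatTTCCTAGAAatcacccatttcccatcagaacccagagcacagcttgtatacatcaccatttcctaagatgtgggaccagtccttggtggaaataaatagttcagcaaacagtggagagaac
Tgtp1: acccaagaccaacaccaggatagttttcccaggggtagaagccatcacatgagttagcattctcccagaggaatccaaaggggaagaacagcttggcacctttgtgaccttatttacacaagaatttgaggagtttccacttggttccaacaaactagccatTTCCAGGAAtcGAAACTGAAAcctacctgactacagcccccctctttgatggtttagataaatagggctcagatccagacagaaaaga
The TTCNNNGAA matches begin 163, 33, 121 and 88 bases before the start of Pdyn, Serpina3g, Serpina3f and Tgtp1, and the response element match of Tgtp1 begins 77 bases before it. In this window TTCNNNGAA was found in 7.02 percent of all 32851 RefSeq promoters and the response element core in 2.98 percent. Among genes with a matched promoter, TTCNNNGAA was in 10.9 percent of those at least 2-fold higher, 18.8 percent of those at least 8-fold higher, 7.24 percent of those at least 2-fold lower and 6.82 percent of those not called. The response element core was in 13.6, 26.7, 1.81 and 2.78 percent of the same sets. A match describes the letters and is not a site of binding.

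**Figure D2:**
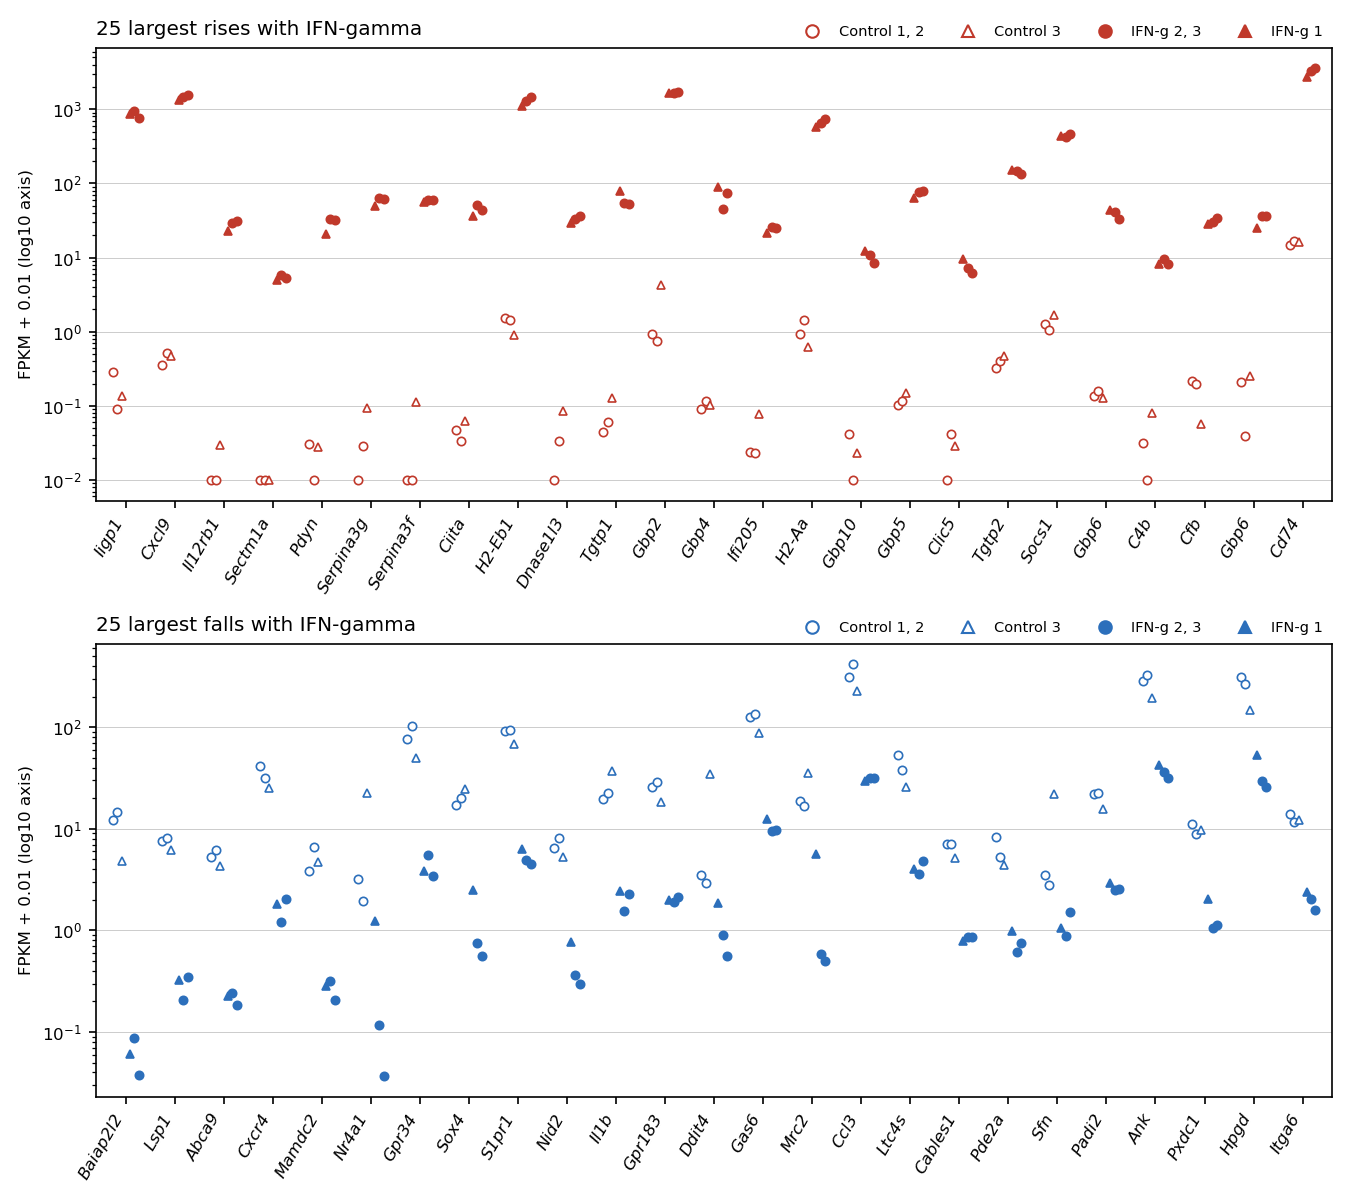
FPKM on a log10 axis (0.01 added so that values of 0 can be drawn) in each Control library (open symbols) and each IFN-g library (filled symbols) for the 25 genes with the largest rises (upper panel) and the 25 with the largest falls (lower panel) under the naming rule; triangles mark Control 3 and IFN-g 1, and Gbp6 stands for each of 2 gene identifiers of that name. In every gene drawn the 3 IFN-g libraries lie on one side of the 3 Control libraries.

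Components of the pathway itself changed in both directions. Of 18 tested genes of the receptor, JAK-STAT and feedback list, 10 rose and 1 fell. The gene that fell was Ifngr1, the ligand-binding receptor chain, at 52.7, 53.9 and 41 FPKM in Control and 21.8, 25.9 and 25.1 FPKM in IFN-g. All 3 treated libraries were lower, by 0.93 ± 0.15 (adjusted p = 0.00124). Ifngr2, the partner chain, was not called (-0.06 ± 0.10), nor was Jak1 (-0.15 ± 0.08). Socs1, an inhibitor of JAK kinases, read 1.25, 1.04 and 1.69 FPKM in Control and 430.5, 419 and 463 FPKM in IFN-g. It rose by 8.47 ± 0.19 (adjusted p = 5.31e-09), the largest rise on the list. Socs3, a related inhibitor best known for braking interleukin-6 type signals, rose by 4.16 ± 0.66, or 5.53 without Control 3, from 2.23, 1.15 and 10.8 to 83.8, 67.5 and 75.1 FPKM. Usp18, a brake on the type I interferon receptor, rose by 3.05, and Ifnar1, a chain of that receptor, fell by 0.71 ± 0.09. The transducers Stat2 and Stat3 rose by 2.00 and 1.10. Among the interferon regulatory factors Irf1 rose by 4.55 ± 0.16, Irf7 by 3.28 ± 0.25 and Irf8, a factor needed for microglial development, by 1.84 ± 0.19. Irf3 (0.00 ± 0.10) and Irf9 (0.17 ± 0.16) were not called.

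Antigen presentation genes rose nearly throughout. Of the 16 class II genes tested 12 rose and none fell, and of the 20 class I genes 19 rose and none fell. Ciita, the master regulator of class II transcription, read 0.038, 0.0241 and 0.0532 FPKM in Control and 36.4, 50.9 and 43.8 FPKM in IFN-g (10.20 ± 0.28, adjusted p = 2.85e-08). H2-Eb1, a class II beta chain, read 1.52, 1.44 and 0.896 and then 1107, 1309 and 1455 FPKM. The peptide editor chain H2-DMb1 rose less, by 2.81, as did Ifi30, a lysosomal thiol reductase, by 2.69, and H2-Ob, an inhibitor of that editing, was not called (0.29 ± 0.20). Ctss, the cathepsin that trims the invariant chain, was high in both groups and not called (4100.5, 4012 and 2859 FPKM in Control and 3902, 3365 and 3632 FPKM in IFN-g). The 2 class I genes with the largest rises, H2-Q7 (4.91) and H2-Q6 (4.47), are near copies of each other, and how the authors' counting shared reads between such copies is not given in the sources used here. The chaperone-like editor Tapbpl rose by 3.09 ± 0.18.

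The proteasome, which supplies peptides to class I molecules, rose almost as a whole. Of 22 subunit and activator genes, 21 rose and the activator Psme4 was not called (0.07 ± 0.08); the list's median was 0.89. Among the catalytic subunits the interferon-inducible ones rose most, Psmb8 by 2.56 ± 0.21, Psmb9 by 2.52 ± 0.19 and Psmb10 by 2.11 ± 0.16. The PA28 activator genes Psme1 and Psme2 rose by 2.16 and 2.17. Constitutive subunits rose too. Psma5 read 16.3, 16.3 and 19.6 FPKM in Control and 44.5, 40.7 and 44.1 FPKM in IFN-g (1.41 ± 0.07, adjusted p = 9.67e-07), and Psmb7, the constitutive counterpart of Psmb10, rose by 1.31 ± 0.09.

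Genes of cell-autonomous defence followed. All 11 guanylate-binding protein genes tested rose, by between 3.60 and 9.88 (Gbp2, 11.02 without Control 3), and 10 of 11 immunity-related GTPase genes rose. Testing required at least 1 FPKM in at least 2 libraries. Members below that level in every Control library, such as Gbp2b and the GTPase gene Iigp1, could be tested only through treated libraries. The counts of rises were thus partly fixed by that minimum. Several members of both families are close copies whose reads the counting may have split. Of 36 antiviral effectors 32 rose and 1 fell (median 1.74), the fall being called no longer without Control 1, Control 2, IFN-g 2 or IFN-g 3. Samhd1, which degrades nucleotides needed for viral DNA synthesis, read 9.64, 7.72 and 7.05 FPKM in Control and 217, 259 and 243 FPKM in IFN-g (4.97 ± 0.18, adjusted p = 1.29e-07). Ifitm1, a membrane protein that blocks virus entry, rose by 5.57 ± 0.86, or 8.07 without Control 3. The ubiquitin-like modifier Isg15 rose by 3.50 ± 0.22. Among nucleic acid sensors 14 of 19 rose. Zbp1, a sensor of Z-form nucleic acids that can start necroptosis, rose by 4.87 ± 0.21, and Tmem173, which encodes STING, by 2.47 ± 0.14. Ifi205, of the HIN-200 family, rose by 9.57 ± 0.33, or 10.74 without Control 3, whereas its relative Aim2, the inflammasome DNA sensor, was not called (-0.02 ± 0.23). Of 16 Schlafen, PARP and related genes 14 rose, led by Slfn1, a gene linked to T cell quiescence, at 0.214, 0 and 0 FPKM in Control and 8.4, 5.71 and 8.28 FPKM in IFN-g (6.79 ± 0.96, or 11.01 without Control 1).

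**Figure D3:**
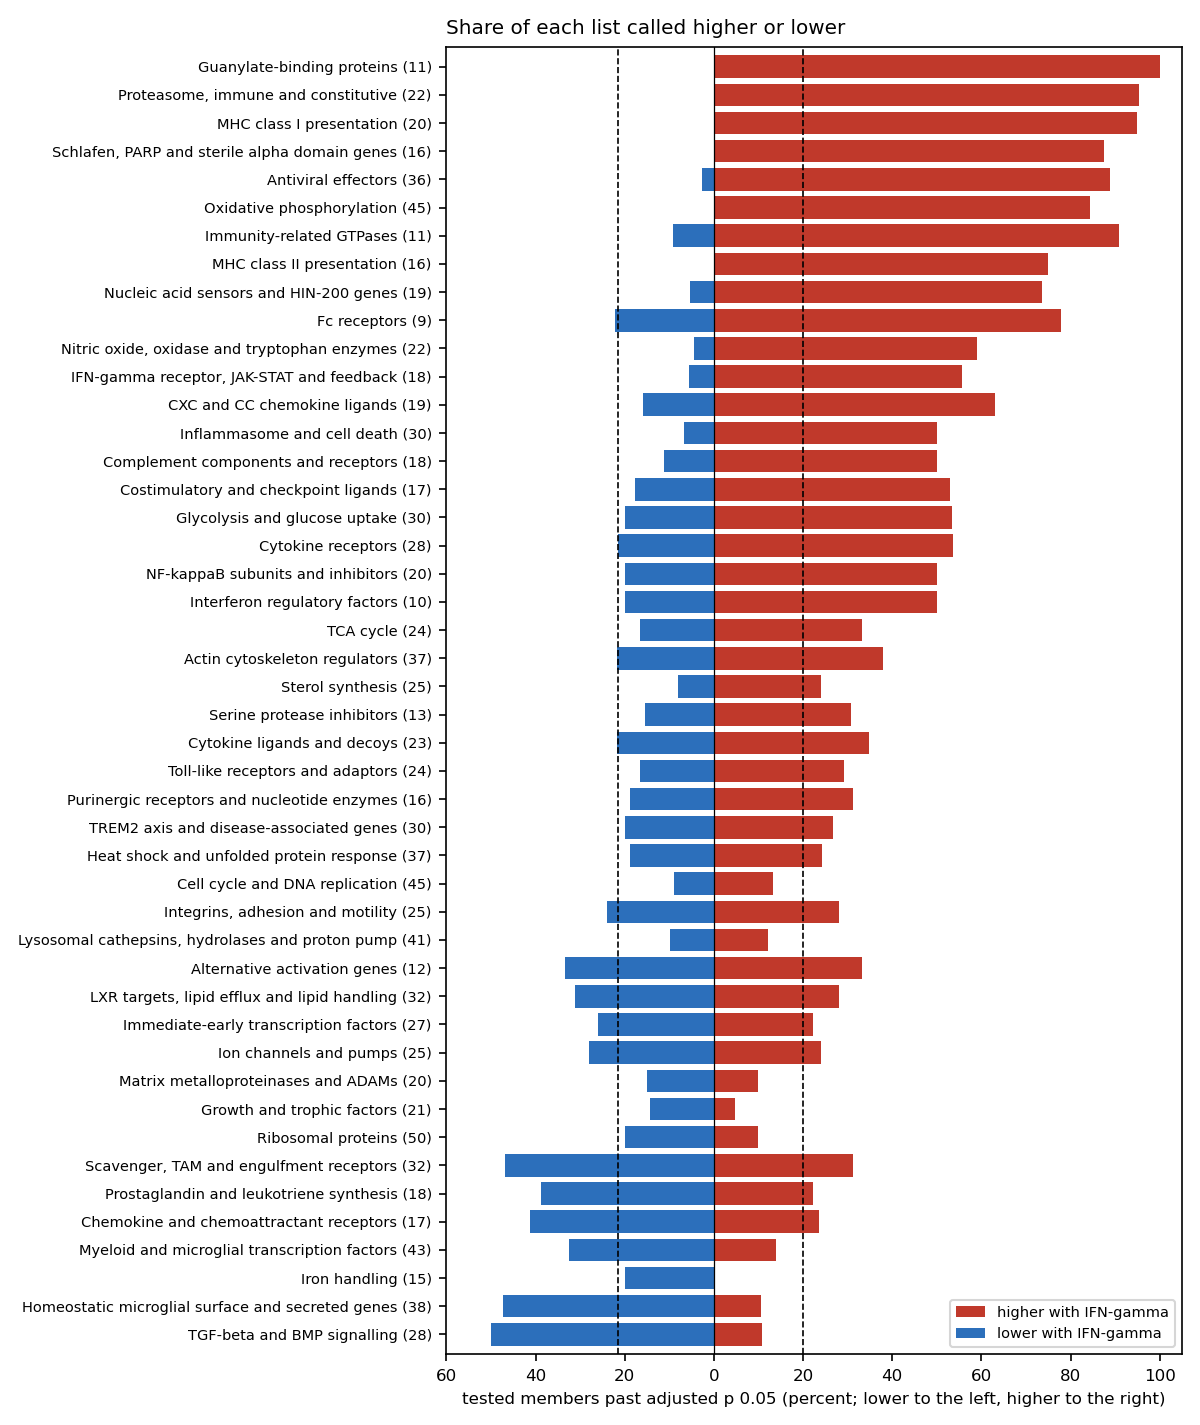
For each of the 46 gene lists, the percentage of tested members higher (right, red) and lower (left, blue) with IFN-gamma at an adjusted p under 0.05, with the number of members tested beside the name; vertical dashed lines mark the percentages over all tested genes, 20.0 higher and 21.6 lower. Guanylate-binding, proteasome and class I genes stand at the right edge, and the TGF-beta, engulfment and homeostatic lists have the longest bars to the left among lists with more than 25 genes.

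Of 19 chemokine ligand genes tested 12 rose and 3 fell. The ligands of CXCR3, a receptor of activated T cells, were among the largest rises, with Cxcl11 up by 7.61 ± 0.77 (9.48 without Control 3) and Cxcl10 by 7.54 ± 0.22. Monocyte-attracting ligands of CCR2 rose as well: Ccl12 read 2.37, 4 and 2.54 FPKM in Control and 309.9, 337 and 380.5 FPKM in IFN-g (6.94 ± 0.30, adjusted p = 3.72e-07), and Ccl2 read 0.941, 1.56 and 5.76 and then 209.9, 223 and 257 FPKM (6.53 ± 0.65, or 7.56 without Control 3). Ccl5 rose by 5.28 ± 0.24 and Ccl22, a ligand of CCR4, by 6.96 ± 0.58, or 7.55 without Control 1. Ccl3 and Ccl4, which attract macrophages and T cells, went the other way. Ccl3 read 311, 416 and 229 FPKM in Control and 29.7, 31.3 and 31.4 FPKM in IFN-g, with every treated library below every untreated one. It fell by 3.29 ± 0.23 (adjusted p = 6.87e-06), and Ccl4 fell by 2.27 ± 0.24, from 125, 158 and 93.9 to 19.4, 23.8 and 30.0 FPKM.

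Cytokine genes were also mixed, with 8 of 23 higher and 5 lower, against 20.0 and 21.6 percent of all tested genes. Tnfsf10, the death ligand TRAIL, rose by 5.05 ± 0.25, from 0.257, 0.133 and 0.147 to 5.37, 5.92 and 5.37 FPKM. Il27, the p28 subunit of interleukin-27, rose by 4.01 ± 0.29, and Ebi3, its partner subunit, was not called (0.14 ± 0.15). Il18bp, a soluble trap for interleukin-18, rose by 3.14 ± 0.17 and Il18 itself by 0.96 ± 0.16. Tnf rose by 2.70 ± 0.27, from 9.46, 6.29 and 4.58 to 42.4, 35.9 and 46.7 FPKM. Il1b, the precursor of interleukin-1 beta, read 19.6, 22.7 and 36.7 FPKM in Control and 2.43, 1.55 and 2.25 FPKM in IFN-g. It fell by 3.54 ± 0.25 (adjusted p = 7.46e-06), with no overlap. Il1a fell by 0.77 ± 0.12, and Il1rn, the receptor antagonist of both, rose by 2.95 ± 0.21. Osm, an interleukin-6 family ligand, fell by 1.38 ± 0.16, and its signal chain Il6st by 1.15 ± 0.19. Il10 (-3.22 ± 1.17) and Il12b (1.25 ± 1.04) were not called and their SEs were wide. Il10 was close to 0 in both groups, at 0, 0.0965 and 0.0426 FPKM in Control and 0 in every IFN-g library. Il12b read 0.118, 0.045 and 0.338 FPKM in Control and 0, 0.647 and 0.471 FPKM in IFN-g.

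Of 28 cytokine receptor genes 15 rose and 6 fell, or 15 and 10 in the 4-library comparison. With all libraries, 20.0 percent of all tested genes were higher and 21.6 percent lower, so the falls lay near that share. Il2rg, the common gamma chain, read 12.7, 18.9 and 11.8 FPKM in Control and 107, 127 and 143 FPKM in IFN-g (3.20 ± 0.22). Il15ra rose by 2.36 ± 0.10. Csf3r, the receptor of granulocyte colony-stimulating factor, fell by 1.27 ± 0.19. Tnfrsf1b, the TNF receptor without a death domain, fell by 0.90 ± 0.12. Csf1r, the M-CSF receptor on which microglia depend, was not called (0.05 ± 0.17) and read 549.6, 513 and 377 FPKM in Control and 438, 475 and 494 FPKM in IFN-g.

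Of 18 genes on the complement list 9 rose, against 20.0 percent of all tested genes. In the 4-library comparison 13 rose, against 23.1 percent there. The 2 that fell with all libraries, C3ar1 and C5ar1, encode anaphylatoxin receptors. C3 read 8.35, 9.24 and 7.55 FPKM in Control and 86, 111 and 119 FPKM in IFN-g (3.75 ± 0.18, adjusted p = 5.36e-07). C1qa, a chain of the initiating protein C1q, read 2654, 2677 and 1886 FPKM in Control and 4441, 4468 and 5114 FPKM in IFN-g. The C1q chains rose by similar amounts, C1qa by 1.05 ± 0.18, C1qb by 1.21 ± 0.18 and C1qc by 1.10 ± 0.18. C3ar1, the receptor of C3a, read 88.2, 70.9 and 61 FPKM in Control and 31.5, 23.2 and 22.1 FPKM in IFN-g. It fell by 1.44 ± 0.18 (adjusted p = 0.000251), and C5ar1 by 0.79 ± 0.19. C5ar2, a second C5a receptor from the list of chemoattractant receptors, fell by 1.69 ± 0.30. Among 9 Fc receptor genes 7 rose and 2 fell. Fcgr4, an activating IgG receptor, rose from 20.0, 11.7 and 14.3 to 407, 350.2 and 342 FPKM (4.67 ± 0.22), the high-affinity receptor Fcgr1 rose by 1.84 ± 0.19, and the inhibitory Fcgr2b rose by 0.68 ± 0.07. The genes that fell, Fcrl1 (-3.45) and Fcrls (-0.99), encode Fc receptor-like proteins, the second a marker of resting microglia.

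Of 17 costimulatory and checkpoint ligands 9 rose and 3 fell, against 20.0 and 21.6 percent of all tested genes. Cd40, through which T cells activate macrophages, read 0.601, 0.423 and 0.687 FPKM in Control and 7.43, 6.9 and 9.44 FPKM in IFN-g (3.90 ± 0.19, adjusted p = 6.04e-07). Cd86, a ligand of CD28, rose by 2.09 ± 0.16, and Cd80, its relative, was not called (-1.30 ± 0.64, or -0.05 without Control 3). The inhibitory ligand Cd274, which is PD-L1, rose by 3.04 ± 0.18. Other checkpoint genes fell, Vsir (VISTA) by 1.70 ± 0.15, from 129, 126 and 94.9 to 36.2, 35.2 and 30.2 FPKM, and Cd276 (B7-H3) by 1.74 ± 0.28.

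Of 22 genes of nitric oxide, oxidant and tryptophan metabolism 13 rose and 1 fell (2 without Control 3 or IFN-g 3). Acod1, which makes the mitochondrial metabolite itaconate, read 6.97, 6 and 6.32 FPKM in Control and 293, 255 and 304 FPKM in IFN-g (5.56 ± 0.13, adjusted p = 6.76e-09). Nos2, the inducible nitric oxide synthase, read 0.0635, 0.211 and 4.68 FPKM in Control and 46.4, 37.9 and 38.8 FPKM in IFN-g. All treated libraries were above all untreated ones, but Control 3 was the highest Control library, and the rise of 4.82 ± 1.09 became 8.23 without Control 3. Ass1, which regenerates arginine for that enzyme, rose by 1.96 ± 0.15. Wars, the tryptophan tRNA ligase, rose by 2.77 ± 0.16. Superoxide-handling Sod2 rose by 1.99 ± 0.09, and the catalase gene Cat fell by 1.14 ± 0.19.

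Cell death and inflammasome genes rose in 15 of 30 cases and fell in 2 (1 without Control 1 or IFN-g 2). The caspases that cut gasdermin D rose, Casp4 by 1.79 ± 0.10 and Casp1 by 1.12 ± 0.22, as did the adaptor Pycard by 1.22 ± 0.20 and the death receptor Fas by 1.70 ± 0.23. Casp8, the caspase that starts apoptosis from death receptors, was not called (0.17 ± 0.12). Bcl2l11, the pro-apoptotic protein BIM, read 5.28, 4.12 and 3.72 FPKM in Control and 0.865, 0.776 and 0.798 FPKM in IFN-g. It fell by 2.34 ± 0.17 (adjusted p = 7.96e-06).

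Among the 25 largest falls, Cxcr4, S1pr1, Gpr183 and Gpr34 encode G protein-coupled receptors of migration or of lysophospholipids. S1pr1, a receptor of sphingosine-1-phosphate, read 92.3, 94.8 and 68 FPKM in Control and 6.31, 4.95 and 4.52 FPKM in IFN-g. It fell by 3.93 ± 0.20 (adjusted p = 8.84e-07), and the groups lay far apart. Gpr183, a receptor of oxysterols that positions immune cells, read 25.9, 28.6 and 18.3 and then 1.97, 1.91 and 2.12 FPKM (-3.52, adjusted p = 2.54e-05). Nid2, a basement membrane protein, fell by 3.76 ± 0.44, and Sox4, a transcription factor of the SOX family, by 3.96 ± 0.49 (-4.87 without IFN-g 1). Ank, a transporter of pyrophosphate and citrate and a gene raised in disease-associated microglia, read 286, 323 and 195 FPKM in Control and 42, 35.9 and 31.5 FPKM in IFN-g (-2.80, adjusted p = 1.34e-05). Padi2, which converts arginine residues to citrulline, fell by 2.83 ± 0.20, and Pde2a, a cyclic nucleotide phosphodiesterase, by 2.87 ± 0.31.

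Over 17 chemokine and chemoattractant receptors 7 fell and 4 rose, with a median of -0.57 (-1.11 in the 4-library comparison, against -0.04 over all genes there). Cx3cr1, the receptor of the neuronal ligand fractalkine, read 302, 317 and 212 FPKM in Control and 77.1, 82.2 and 81.4 FPKM in IFN-g. It fell by 1.70 ± 0.18 (adjusted p = 8e-05). The rise that stood out was Fpr2, a formyl peptide receptor, from 1.91, 1.35 and 0.803 to 23.6, 16.6 and 20.8 FPKM (4.00 ± 0.30).

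**Figure D4:**
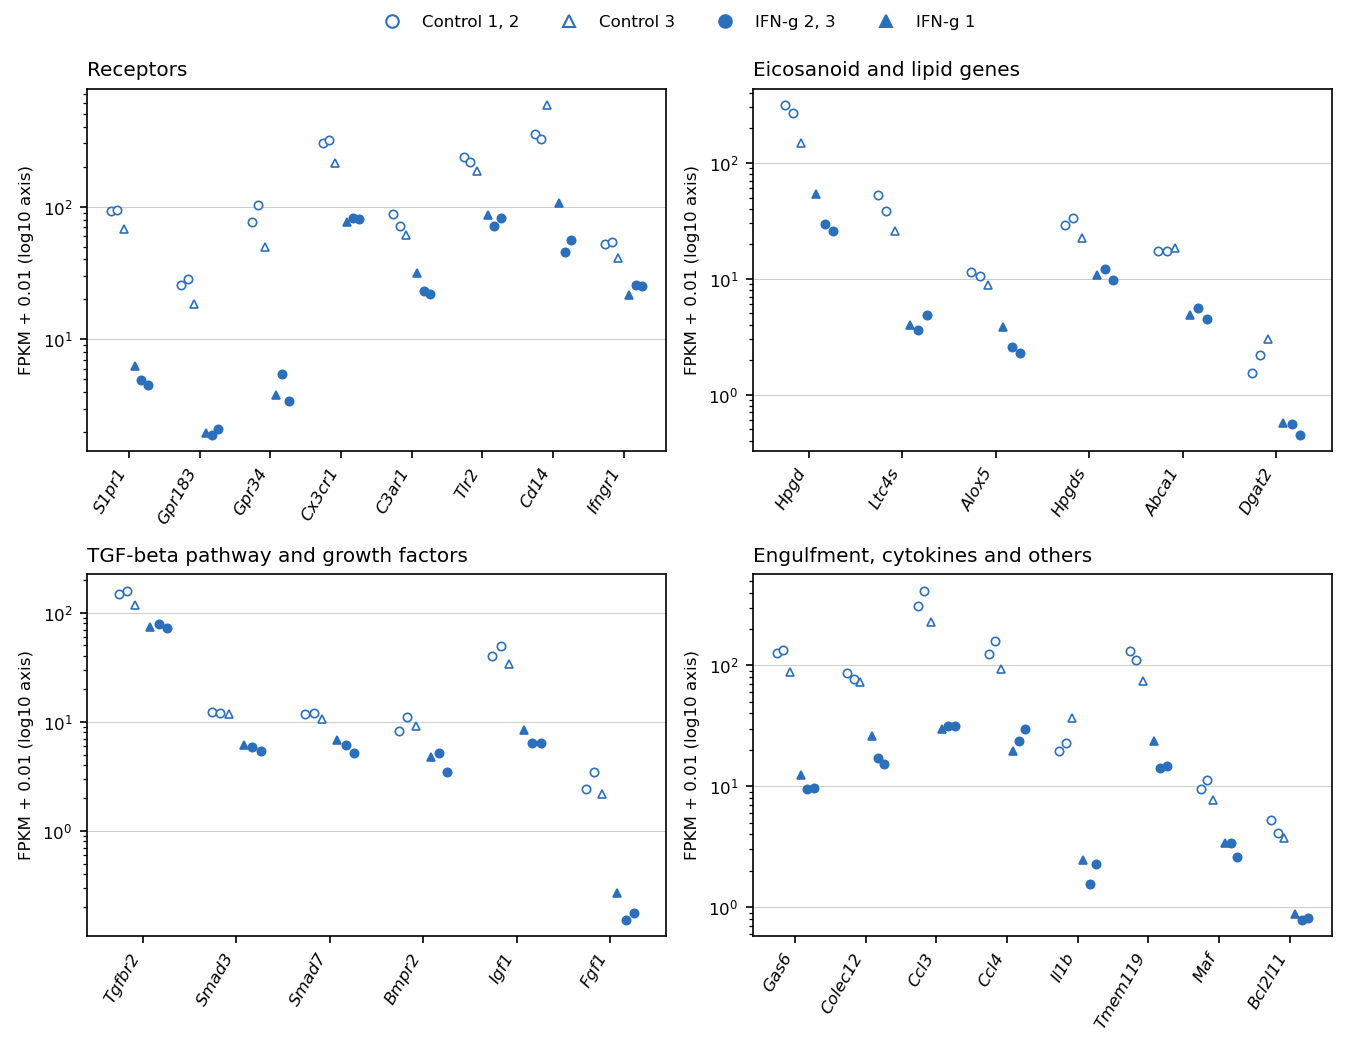
FPKM on a log10 axis in each Control library (open) and each IFN-g library (filled) for repressed receptors, lipid mediator enzymes, TGF-beta pathway genes and engulfment genes named in the text; triangles mark Control 3 and IFN-g 1. In each gene the 3 IFN-g libraries lie below the 3 Control libraries, and Control 3 is often the lowest Control library.

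Homeostatic microglial genes were lower more often than higher. Of 38 tested, 18 fell and 4 rose (median -0.56), and 24 fell and 4 rose in the 4-library comparison. The microglial marker sum was lowest in Control 3, whose part in the smaller count was not tested. Gpr34, which senses lysophosphatidylserine, read 76.6, 103 and 49.8 FPKM in Control and 3.83, 5.45 and 3.43 FPKM in IFN-g (-4.09, adjusted p = 1.53e-05). Slc2a5, a fructose transporter, fell by 3.98 ± 0.42. Tmem119, a widely used microglial marker, read 131, 111 and 74.3 FPKM in Control and 23.6, 14.2 and 14.7 FPKM in IFN-g. It fell by 2.52 ± 0.27 (adjusted p = 9.93e-05). Rnase4, a secreted ribonuclease, fell by 2.31 ± 0.20 and Rhob, a small GTPase, by 1.75 ± 0.10. Other markers did not pass the test. P2ry12, the ADP receptor of microglial processes, read 12.6, 37.3 and 16.8 FPKM in Control and 15.2, 18 and 14.4 FPKM in IFN-g (-0.41 ± 0.35, adjusted p = 0.382), and the value was 0.26 without Control 2. Trem2 (-0.02 ± 0.20) was not called either. Siglech, a sialic acid-binding lectin, was not called with all libraries (-1.02 ± 0.39, adjusted p = 0.0625) and was lower in the 4-library comparison (-1.36 ± 0.25, adjusted p = 0.00252). Entpd1, the surface enzyme CD39 that breaks down ATP, rose from 13.4, 15.8 and 10.2 to 75.5, 107 and 77.3 FPKM (2.81 ± 0.24), the largest rise on the list.

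Among 43 myeloid transcription factors 14 fell and 6 rose. Leaving out Control 1, Control 2 or IFN-g 3 lowered the count of falls to 8, 9 and 9. Leaving out both Control 3 and IFN-g 1 raised it to 17, with 7 rises. Maf, a factor of mature microglia, read 9.5, 11.2 and 7.66 FPKM in Control and 3.37, 3.35 and 2.59 FPKM in IFN-g and fell by 1.52 ± 0.17 (adjusted p = 0.000136). Runx2 fell by 2.42 ± 0.38, Tal1 by 2.09 ± 0.15 and Mef2c, a factor linked to restraint of inflammatory responses, by 0.95 ± 0.20. Batf2, an interferon-inducible AP-1 family member, rose from 0.151, 0.144 and 0.0978 to 11.4, 12.7 and 14.8 FPKM (6.73 ± 0.29), and Batf3 by 2.53 ± 0.36. Spi1, which encodes the lineage factor PU.1, rose by 0.81 ± 0.19. Sall1, a microglia-restricted repressor, was called at -0.53 ± 0.18 (adjusted p = 0.0411). The call was lost without any 1 of 5 of the 6 libraries, with values from -0.60 without IFN-g 2 to -0.37 without Control 2. Without the remaining library, Control 3, Sall1 was lower by more (-0.74, adjusted p = 0.000109). Of the immediate-early factors, Jun rose by 1.57 ± 0.20 and Btg2 fell by 1.21 ± 0.06, while Fos was not called (0.26 ± 0.15).

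The TGF-beta and BMP list ran lower. Of 28 genes 14 fell and 3 rose (median -0.42), in cultures that all received TGF-beta1. The count of falls was 8 without IFN-g 3, and the count of rises was 5 without Control 3. Tgfbr2, the ligand-binding receptor, read 147, 159 and 117 FPKM in Control and 74.2, 78.5 and 72.9 FPKM in IFN-g (-0.82, adjusted p = 0.00178). The signal transducer Smad3 fell by 0.95 ± 0.09 and the feedback inhibitor Smad7, itself a target of the pathway, by 0.84 ± 0.12. Bmpr2, a BMP receptor, fell by 1.00 ± 0.19. Acvrl1, a receptor for BMP9 and TGF-beta, rose by 1.84 ± 0.23, and Tgfbi, a secreted target of TGF-beta, by 1.66 ± 0.09. Among 21 growth factors 3 fell and 1 rose, and the other 17 were not called. In the 4-library comparison 8 fell and 2 rose, and 5 fell without Control 3 or without IFN-g 1. Igf1, a trophic factor supplied by microglia, read 40.0, 49.5 and 34.2 FPKM in Control and 8.33, 6.32 and 6.34 FPKM in IFN-g. It fell by 2.47 ± 0.19 (adjusted p = 1.38e-05). Fgf1 fell by 3.74 ± 0.39.

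Engulfment genes changed in both directions. Of 32 scavenger, TAM and engulfment genes 15 fell and 10 rose. Gas6, the bridge between dying cells and TAM receptors, read 126, 135 and 88.3 FPKM in Control and 12.4, 9.53 and 9.63 FPKM in IFN-g. It fell by 3.39 ± 0.20 (adjusted p = 2.4e-06). Its receptor Axl rose slightly (0.63 ± 0.13), and Mertk, the other TAM receptor of microglia, was not called with all libraries (-0.34 ± 0.13, adjusted p = 0.0673) and was lower in the 4-library comparison (-0.45 ± 0.08, adjusted p = 0.00206). Timd4, a phosphatidylserine receptor, rose from 0.0306, 0 and 0 to 2.22, 3.1 and 2.5 FPKM (7.76 ± 0.69, or 9.71 without Control 1). Colec12, a scavenger receptor with a collagen stalk, fell by 1.94 ± 0.19, and Itgb3, an integrin chain of engulfment, fell by 1.79 ± 0.15. Clec5a, an activating lectin, rose by 2.40 ± 0.17, and Cd36, a receptor of oxidised lipids, by 1.29 ± 0.22.

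Toll-like receptor genes changed in both directions. Tlr2, the receptor of bacterial lipopeptides such as Pam3CSK4, read 239, 217 and 186 FPKM in Control and 86.3, 71.6 and 82.7 FPKM in IFN-g. It fell by 1.33 ± 0.16 (adjusted p = 0.000195), whereas its partner Tlr1 rose by 1.26 ± 0.19 and Tlr6 was not called (0.25 ± 0.17). Cd14, a co-receptor of TLR2 and TLR4, fell from 353, 325 and 578 to 107, 45.9 and 56.5 FPKM (-2.47). The endosomal receptors Tlr13 and Tlr8 fell by 1.52 ± 0.17 and 1.03 ± 0.26, and Tlr12, a receptor of profilin, rose from 0.314, 0.316 and 0.186 to 8.89, 10.3 and 10.8 FPKM (5.29 ± 0.33). Over the list of 24 genes, 7 rose, 4 fell (7 without Control 3) and the median was -0.03. These counts lie near the shares over all tested genes, 20.0 percent higher and 21.6 percent lower.

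Enzymes of eicosanoid metabolism fell in 7 of 18 cases and rose in 4 (1 without IFN-g 1, and 2 without Control 1, IFN-g 2 or IFN-g 3). Among all tested genes 21.6 percent were lower and 20.0 percent higher, and the rises lay near that share. Hpgd, which inactivates prostaglandins, read 311, 269 and 148 FPKM in Control and 53.3, 29.4 and 25.8 FPKM in IFN-g. It fell by 2.68 ± 0.37 (adjusted p = 0.000447). Ltc4s, which makes leukotriene C4, read 53, 38.2 and 25.8 and then 3.97, 3.57 and 4.81 FPKM (-3.16). Alox5, the first enzyme of leukotriene synthesis, fell by 1.75 ± 0.20, and Hpgds, the prostaglandin D synthase, by 1.29 ± 0.17. Pla2g7, which degrades platelet-activating factor, rose by 2.23 ± 0.24. In lipid transport Abca1, the cholesterol exporter, fell by 1.73 ± 0.14 and its partner Abcg1 rose by 1.39 ± 0.18, over a list with 9 of 32 higher and 10 lower. Dgat2, which makes triglycerides, fell by 1.99 ± 0.25. Apoe read 2587, 1652 and 1518 FPKM in Control and 1118, 945 and 1065 FPKM in IFN-g and missed the threshold (-0.79 ± 0.29, adjusted p = 0.0507); in the 4-library comparison it was -1.01 ± 0.31 (adjusted p = 0.0271).

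Other surface genes went both ways. P2ry14, a receptor of UDP-sugars, rose from 0.0706, 0.0895 and 0.0461 to 2.63, 3.18 and 2.39 FPKM (5.40 ± 0.29), and Slc29a1, a nucleoside transporter, fell by 1.18 ± 0.08. Trpm2, a calcium channel opened by oxidant stress, rose by 1.94 ± 0.22, and the calcium channel gene Cacna1d fell by 1.37 ± 0.19. Vcam1, an adhesion ligand of the integrin chain Itga4, rose from 0.0138, 0.0196 and 0.318 to 3.49, 4.21 and 4.27 FPKM (5.21 ± 0.86, or 7.88 without Control 3), and Icam1, a ligand of LFA-1, by 2.70 ± 0.18. Itga6, a laminin receptor chain, fell from 13.9, 11.6 and 12.3 to 2.37, 2.04 and 1.58 FPKM (-2.56), and Alcam by 2.16 ± 0.16. In the cytoskeleton Tmsb10, an actin monomer-binding peptide, rose by 2.04 ± 0.20 and Fscn1, which bundles actin, fell by 1.78 ± 0.09. Mmp25, a membrane-bound metalloproteinase, rose by 8.31 ± 0.86, or 10.97 without Control 3, and Mmp12, the macrophage elastase, fell by 1.46 ± 0.26. Slc40a1, the iron exporter ferroportin, fell from 13.8, 11.6 and 7.17 to 3.95, 4.16 and 3.03 FPKM (-1.47, adjusted p = 0.00166). Of the 15 iron genes tested 3 fell and none rose (8 and 2 without Control 3). Over all tested genes 21.6 percent were lower and 20.0 percent higher.

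Of 45 oxidative phosphorylation subunits 38 rose, none fell and the median was 0.58 (0.56 in the 4-library comparison), with 20.0 percent of all genes higher. Cox7b, of complex IV, read 28.6, 28.9 and 30.8 FPKM in Control and 66.9, 65.9 and 81.3 FPKM in IFN-g (1.38 ± 0.10, adjusted p = 1.07e-05). Ndufs3 of complex I rose by 1.05 ± 0.09 and Atp5g1 of the ATP synthase by 0.93 ± 0.15. Of 30 glycolysis and glucose uptake genes 16 rose and 6 fell, the falls being near the 21.6 percent of all tested genes. Hk3, a myeloid hexokinase, rose by 3.54 ± 0.17, from 26.2, 22.5 and 18.7 to 225, 254 and 256 FPKM, and Pkm, the last enzyme of the path, by 1.03 ± 0.10. Slc2a3, a glucose transporter, fell by 1.55 ± 0.34 while Slc2a6 rose by 1.33 ± 0.16. In the TCA cycle 8 of 24 genes rose (13 without Control 3) and 4 fell, and those that fell most were the isocitrate dehydrogenases that use NADP, Idh2 (-1.03) and Idh1 (-0.86).

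**Figure D5:**
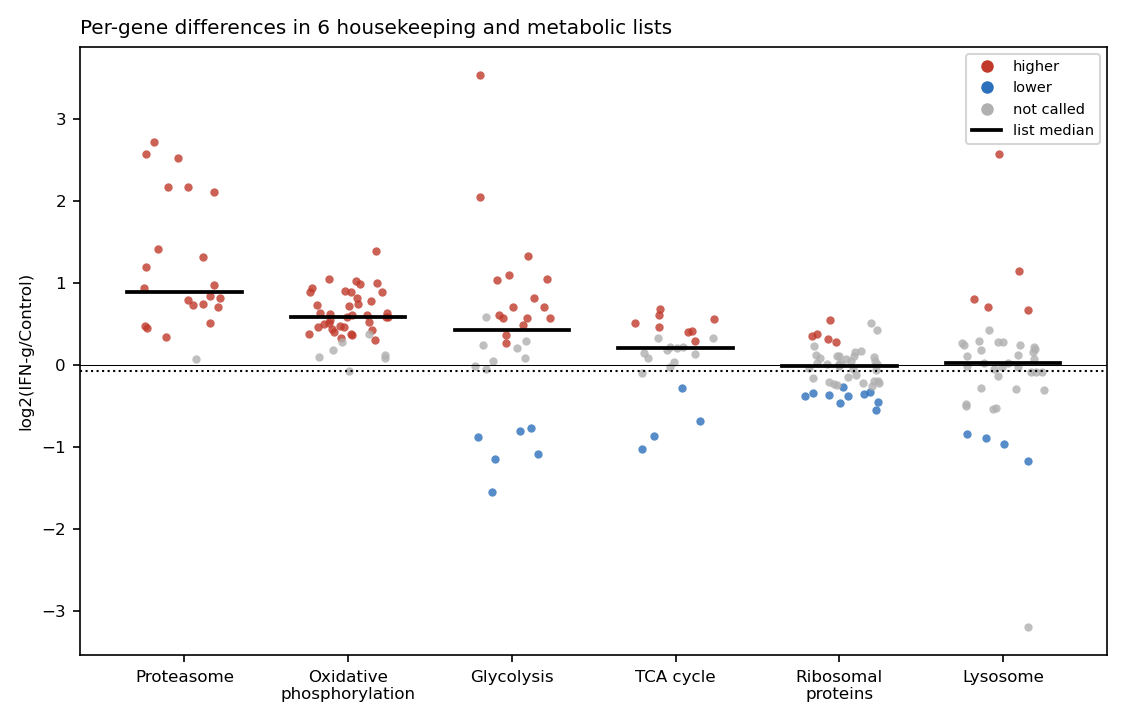
Log2 difference between IFN-g and Control (fit of all libraries) for every tested member of 6 lists, with 1 point per gene, coloured by its call, and a bar at each list's median; the dotted line marks the median of all tested genes, -0.07. Proteasome and oxidative phosphorylation genes lie almost wholly above 0, and the ribosomal and lysosomal lists are centred near 0.

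Other housekeeping lists did not lean so. Of 50 ribosomal protein genes 5 rose and 10 fell, against 20.0 and 21.6 percent of all tested genes, with a median of -0.01. Their pseudogenes make such counts uncertain. These calls were fragile, with 1, 2 and 3 rises without IFN-g 3, Control 1 and Control 2, and 6 falls without Control 2, IFN-g 1 or IFN-g 2. Lysosomal genes gave 5 higher and 4 lower of 41, and 5 and 17 in the 4-library comparison, with 17 lower also without Control 3 alone. Ctsc, the cathepsin that activates serine proteases, rose from 70.5, 71.4 and 59.3 to 388, 362 and 374 FPKM (2.57 ± 0.13), and Ctsl fell by 0.89 ± 0.11. Cell cycle genes gave 6 higher and 4 lower of 45 (12 and 9 in the 4-library comparison). Without Control 3 there were 15 higher and 0 lower; without IFN-g 3, 3 higher and 0 lower; and without IFN-g 2, Control 1 and IFN-g 1, 0, 7 and 8 lower. Ccnd1, a G1 cyclin, rose by 1.23 ± 0.13, while the proliferation marker Mki67 was called lower (-1.15 ± 0.36) but not without Control 3 (-0.66, adjusted p = 0.0868), IFN-g 2 (-1.04) or IFN-g 3 (-0.93). In the heat shock and unfolded protein list 9 of 37 rose (18 without Control 3) and 7 fell, near the 20.0 and 21.6 percent of all tested genes. Of the NF-kappaB list 10 of 20 rose, among them the inhibitor Nfkbie (1.41), Bcl3 (1.32) and the non-canonical subunit Nfkb2 (0.90). Rela, the main activating subunit, was not called (-0.03 ± 0.09), and Nfkbiz, a coactivator of secondary targets, fell by 1.47 ± 0.22.

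Several values rested on Control 3 or IFN-g 1, the libraries with mural and fibroblast transcripts. Ptgs2, the inducible cyclooxygenase, read 0.241, 0.135 and 144 FPKM in Control and 65.7, 39.9 and 30.0 FPKM in IFN-g. The groups overlapped through Control 3 alone, with 0.13 ± 1.64 (adjusted p = 0.958) in all libraries, -0.46 without Control 1 or Control 2 and 7.60 ± 0.28 (adjusted p = 2.68e-07) in the 4-library comparison. Arg1, arginase, read 0.676, 0.257 and 1.7 FPKM in Control and 15.8, 1.34 and 1.62 FPKM in IFN-g. Control 3 overlapped the IFN-g libraries. The rise of 2.92 ± 1.04 became 0.89 (adjusted p = 0.369) without IFN-g 1, and the call was also lost without Control 1 (2.80) or Control 2 (2.51). Ccnd2, a cyclin, read 0.528, 0.174 and 15.7 and then 5.46, 4.27 and 4.23 FPKM, not called with all libraries (-0.03 ± 1.13) and 3.67 ± 0.38 (adjusted p = 0.000102) in the 4-library comparison. Il6 read 0.488, 0.464 and 7.22 FPKM in Control and 3.46, 0.0786 and 0.0162 FPKM in IFN-g, with -1.05 ± 1.33 and then -3.13 ± 0.54 (adjusted p = 0.00179) in the 4-library comparison. Its direction turned without Control 3 alone (1.34, adjusted p = 0.432), and without IFN-g 1 alone it was -5.52 (adjusted p = 0.0249). Nr4a1, an immediate-early nuclear receptor, read 3.17, 1.94 and 22.4 FPKM in Control and 1.22, 0.108 and 0.0268 FPKM in IFN-g; it fell by 4.18 ± 1.21 (adjusted p = 0.0206), and without Control 3 the value was -2.47 (adjusted p = 0.0605), without IFN-g 1 -6.77, and the call was also lost without IFN-g 2 (-3.70) or IFN-g 3 (-3.66). Ddit4, a stress-induced inhibitor of mTOR signalling, fell by 3.46 ± 0.90 with all libraries, against -1.51 without Control 3, and the call was lost without IFN-g 3 (-3.18, adjusted p = 0.0516). Mrc2, a collagen receptor also made by fibroblasts, read 18.8, 16.9 and 35 and then 5.67, 0.575 and 0.488 FPKM, with a fall of 3.29 ± 0.84 against -5.32 without IFN-g 1. The part that the other cells played in these values was not tested.

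The same cytokine was also given after Pam3CSK4, in libraries that share none with the comparison above. Of the 731 genes at least 2-fold higher with IFN-gamma alone, 357 were higher and 3 lower in Pam3CSK4 plus IFN-gamma against Pam3CSK4, where 6.06 percent of all tested genes were higher. Of the 698 genes at least 2-fold lower with IFN-gamma alone, 97 were lower and 9 higher there, where 3.04 percent of all tested genes were lower. The difference between the IFN-gamma effects was itself past the threshold for 336 of the 731 and 352 of the 698 genes, against 16.0 percent of all tested genes (1752, but 3232 without Control 3 and 3363 without Control 3 and IFN-g 1); since the effect of IFN-gamma alone enters that difference, these shares were partly fixed by the choice of genes. Socs1 illustrates the induced side, with 8.47 ± 0.19 alone and 4.19 ± 0.18 after Pam3CSK4. Il1b illustrates the repressed side, with -3.54 ± 0.25 alone and 1.82 ± 0.27 after Pam3CSK4. Il1b read 54.2 and 65.7 FPKM in the 2 Pam3CSK4 libraries and 217, 212 and 160.2 FPKM in the 3 libraries that received IFN-gamma as well.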

How the data were processed

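Strand and read length are not stated in the labels or file headers. The authors deposited 1 table of 34745 genes with a read count and an FPKM per gene and library; per the submitters' processing notes the tools were TopHat2 2.1.0, Cufflinks 2.1.1 and Cuffdiff on mm10, with no roles or parameters given, so how reads shared by near copies or overlapping genes were counted is unknown. The deposited counts are whole numbers, and the deposited FPKM values follow from count, gene length and library total to within a relative deviation of 3.17e-06 in 6617 genes. FPKM is printed as the level; every test used the counts. Libraries of the compared groups hold 15033702 to 18687401 counts, of which at least 98.19 percent lie in tested genes.

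Genes with at least 1 FPKM in at least 2 of the 11 libraries (10938) were fitted with edgeR 4.0.16 (quasi-likelihood test, TMM scaling, R 4.3.3) as 4 group means over all 11 libraries, two-sided, with Benjamini-Hochberg adjustment over all tested genes and a threshold of 0.05. The method was tested on simulated data. Alternatives were DESeq2 1.42.0, other scaling and filters, fewer libraries, each library left out and a replicate block. Counting intervals are exact at 95 percent and, like the floor of 3 counts, cover counting error only.

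The members, the 46 gene lists and the 8 marker lists were chosen with earlier results of these data known, so lists are described by counts and medians with no test. Named genes are the 25 largest rises and 25 largest falls (called with and without Control 3 and IFN-g 1, at least 5 FPKM in the higher group, no overlap between groups, no predicted genes), up to 8 genes per list and direction, a set of 39 genes, and list members that did not pass, with their values; a few such genes are not reported here. Gene symbols were matched through GENCODE M21 identifiers, of which 34267 were found. Promoters are from RefSeq (GRCm38.p6) and were matched by symbol for 8088 tested genes; the first 250 of 300 bases of each were searched.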

Additional observations from a re-analysis of the deposited data

Results flagged for a closer look

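A set of 39 genes was compared for the IFN-gamma effect with and without Pam3CSK4 given first, and in 19 of them the effects differed by the interaction contrast of edgeR's quasi-likelihood test. Values are log2 effects, and the difference is the effect after Pam3CSK4 minus the effect alone. The pair of effects shares no library, but the arm with Pam3CSK4 has 2 libraries as its baseline. These 39 genes were picked with results known, and 16.0 percent of all tested genes passed the same contrast.

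For 12 induced genes the log2 effect was smaller after Pam3CSK4, which compares with a baseline that Pam3CSK4 itself could shift. In level, all 3 libraries with both agents were above all 3 with IFN-gamma alone for 6 of the 12 genes and below them for 4, and they overlapped for 2. Cxcl10 read 47.2 and 42.2 FPKM with Pam3CSK4, 572, 575 and 507 FPKM with both agents and 100.5, 73.2 and 107 FPKM with IFN-gamma alone. H2-Ab1 read 15.2 and 15.1 FPKM with Pam3CSK4, 46.6, 47.0 and 44.5 FPKM with both and 885, 919 and 1081 FPKM with IFN-gamma alone. Socs1 rose by 8.47 alone and by 4.19 after it (difference -4.28 ± 0.22, adjusted p = 1.32e-05). Acod1 rose by 5.56 and 1.49 (difference -4.07 ± 0.16, adjusted p = 3.9e-06). H2-Ab1 differed by -3.39 ± 0.22, Gbp2 by -4.22 ± 0.71, Cxcl10 by -3.80 ± 0.25 and Cxcl9 by -3.09 ± 0.20. Tnf had an effect of 2.70 alone and 0.41 after Pam3CSK4, a difference of -2.29 ± 0.37, where the second effect did not pass the test. Smaller differences were those of Cd40 (-2.02 ± 0.25), Nlrc5 (-1.58 ± 0.18), Tap1 (-1.39 ± 0.26), Cd274 (-1.22 ± 0.24) and Jak2 (-0.72 ± 0.15).

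In 7 genes with a negative effect of IFN-gamma alone the difference was positive. Il1b had -3.54 alone and 1.82 after Pam3CSK4 (difference 5.36 ± 0.37, adjusted p = 7.24e-05), so the directions were opposite, and both effects passed the test. Mertk, which did not pass alone (-0.34), had 2.50 after Pam3CSK4 (difference 2.84 ± 0.21, adjusted p = 9.44e-05). Igf1 had -2.47 and -0.11 (difference 2.36 ± 0.28), and Cxcr4 -4.21 and -2.51 (difference 1.70 ± 0.38). Maf differed by 1.35 ± 0.26, Sall1 by 1.08 ± 0.28 and Cx3cr1 by 0.90 ± 0.26 (adjusted p = 0.0454).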

How the results depend on the processing

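Counts of changed genes moved by less than 1.5 times under most alternatives. With median-of-ratios scaling 2286 genes were higher and 2296 lower, and with DESeq2 2425 and 2487. The exception was the count of lower genes in a fit of the 6 Control and IFN-g libraries alone, with 1662 higher and 1444 lower. Why that fit called fewer genes was not tested. Leaving out 1 library gave 1772 to 2607 genes higher, 1829 to 2729 lower, 669 to 833 at least 2-fold higher and 610 to 767 at least 2-fold lower. The count of genes whose IFN-gamma effect differed after Pam3CSK4 (1752) was less stable: 1080 with no low-value filter, 3363 without Control 3 and IFN-g 1, 3100 without these and the third library with mural markers (Pam3CSK4 plus IFN-g 3, an alternative chosen after seeing the data), and 1172 to 3232 on leaving out 1 library, the highest without Control 3. The cause was not tested. Ccnd2, not called with all libraries, changed sign and was called at 3.78 without Control 3 (range on leaving out 1 library -0.59 to 3.78), 3.67 without Control 3 and IFN-g 1 and 3.67 without all 3. Of 503 genes examined singly, none of the 474 called ones changed sign in any alternative. Of the 29 others 16, Ccnd2 among them, did in at least 1. Most called genes were named for large changes, some also for being called without Control 3 and IFN-g 1. Their stable sign was thus partly fixed by that choice. Calls were lost for 85 genes with the 6 libraries alone, 39 with no low-value filter and 21 to 61 on leaving out 1 library, the most without IFN-g 3.

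No label pairs the libraries by replicate number. Deviations from the group means correlated at -0.719, 0.667 and -0.688 for numbers 1, 2 and 3. Of the 3 Control libraries, 2 correlated best with another number (Control 3 with IFN-g 1, 0.81). These values cannot decide whether libraries were paired. Deviations within a group depend on each other, and Control 3 and IFN-g 1 both stand apart by their mural transcripts. A replicate block gave 2047 genes higher, 2122 lower and 1344 for the difference after Pam3CSK4, and 22 of the 503 genes lost their call.

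In counts simulated for the 11 libraries, 33 of 100 2-fold changes were recovered and 89 of 100 at 4-fold. There 10738 of 10938 genes were left unchanged, whereas 41.6 percent were called in the data. The adjustment for multiple tests was therefore stricter in the simulation. Each simulated gene also took the spread typical of its level. The recovered shares thus do not give the sensitivity of this comparison, but a gene that was not called may still differ by 2-fold.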

Other observations

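Genes on none of the lists changed by as much as many listed ones; those given here were chosen after their values were seen. Tspo, the mitochondrial translocator protein that brain imaging uses as a sign of microglial activation, read 116, 101 and 143 FPKM in Control and 683, 758 and 915 FPKM in IFN-g (2.82 ± 0.15, adjusted p = 1.01e-06). Nampt, which makes the NAD precursor nicotinamide mononucleotide, read 39.8, 34 and 29.2 FPKM in Control and 287, 300.1 and 267 FPKM in IFN-g (3.14 ± 0.15). Slamf8, a SLAM family receptor of macrophages, rose by 7.21 ± 0.22, from 1.3, 0.99 and 0.874 to 135, 147 and 157 FPKM. Gatm, the first enzyme of creatine synthesis, rose by 2.95 ± 0.20, and Lap3, a leucine aminopeptidase, by 2.89 ± 0.13. The cell cycle inhibitor locus Cdkn2a rose by 2.61 ± 0.23, from 6.95, 8.45 and 4.65 to 33.7, 42.7 and 39.2 FPKM.

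Sgk1, a kinase downstream of mTORC2, read 131, 140.2 and 100.2 FPKM in Control and 26.7, 19.3 and 21.5 FPKM in IFN-g (-2.38 ± 0.18, adjusted p = 1.12e-05). Glul, glutamine synthetase, fell by 1.26 ± 0.19, from 406, 401 and 274 to 143, 138 and 145 FPKM, and Psat1, of serine synthesis, by 1.47 ± 0.14. Ctnnb1, which encodes beta-catenin, fell by 1.04 ± 0.13 and Rgs10, an inhibitor of G protein signals in microglia, by 1.13 ± 0.19. Gclc, the rate-limiting enzyme of glutathione synthesis, fell by 1.26 ± 0.14, while Prdx5, a peroxiredoxin, rose by 2.06 ± 0.16. Ifi27 carries an interferon-inducible name but fell, from 28.1, 30.0 and 27.9 to 6.36, 6.17 and 6.55 FPKM (-2.08 ± 0.09, adjusted p = 3.77e-07). In all of these genes the 3 IFN-g libraries did not overlap the 3 Control libraries, and each was called in the same direction without Control 3 and IFN-g 1.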
